A study of Mus musculus with 19 samples.

Results

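The mucins and mucin-like proteins described here are 8 genes, Fcgbp, Muc1, Muc3, Muc4, Muc13, Muc15, Muc20 and Emcn, of 54146 genes listed in each RNA library. They were picked by gene symbol from the levels of messenger RNA in whole mouse kidney, when results of this same comparison were already known, so their own differences between the groups are a description and support no further statement. The control group held 3 libraries of strain B6C3F1/J at postnatal day 21, genotype Dnmt3ab f/f, in which both Dnmt3a and Dnmt3b are floxed and no Cre is listed. The KspCre DKO group held 2 libraries of the same strain, age and floxed genes with the KspCre transgene, whose Ksp-cadherin promoter drives Cre in kidney tubule epithelium, so that endothelium, stroma and blood cells are not its target. Both genes encode de novo DNA methyltransferases, and the question was what losing them does to fetal enhancers of the kidney. Values are TPM, a transcript level corrected for length and expressed as a part of a fixed total per library. They hold no read number, so sequencing depth is unknown. Nothing in the labels ties each library to its own animal, and a p-value here reflects only how far these libraries differ among themselves.

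Mucins are proteins with long stretches of serine, threonine and proline that carry dense O-linked sugar chains, either secreted as gels or held in the apical membrane of epithelia. In kidney the membrane mucins sit on tubule and urothelial surfaces facing the urine, and Muc1 is known from the distal nephron and from the inherited kidney disease caused by mutations in its human counterpart. Fcgbp encodes a secreted IgG Fc binding protein found in mucus together with gel-forming mucins. Muc20 is a membrane mucin that binds the hepatocyte growth factor receptor Met, Muc4 a large membrane mucin that binds Erbb2, and Muc3, Muc13 and Muc15 are further membrane mucins. Emcn, endomucin, is the member that belongs to another tissue, a sialomucin of endothelial cells.

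The libraries were not alike. In KspCre DKO replicate 2, 14710 genes were above 0 TPM, against 18488 to 20510 in the other 4, and mitochondrially encoded genes took 31.0% of its TPM, against 18.2% to 23.2%. Neither targeted gene checked the labels. Dnmt3a read 13.2, 19.0 and 15.5 TPM across the controls and 9.98 and 14.2 TPM across the libraries labelled KspCre DKO, and Dnmt3b 1.82, 2.86 and 1.98 TPM and 2.29 and 3.25 TPM, with overlapping groups for both. Directions below therefore rest on the labels alone.

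The study concerns DNA methylation, which falls on CG pairs. Fcgbp, Muc20, Muc1 and Muc4 were above all controls in both KspCre DKO libraries, as were 10.5% of all tested genes. The sequences are of Fcgbp, Muc20 and Muc1, without Muc4, and of the copy next to Fcgbp that was listed near 0. Each is the 250 bases before the RefSeq start of the gene in assembly GRCm38.p6, the build family of mm10, written 5′ to 3′ on the gene's strand, with CG pairs in capitals. Fcgbp lies on the plus strand (chr7:28070986-28071235), as do its copy 9530053A07Rik (chr7:28129216-28129465) and Muc1 (chr3:89228806-89229055), while Muc20 lies on the minus strand (chr16:32797436-32797685).
Fcgbp: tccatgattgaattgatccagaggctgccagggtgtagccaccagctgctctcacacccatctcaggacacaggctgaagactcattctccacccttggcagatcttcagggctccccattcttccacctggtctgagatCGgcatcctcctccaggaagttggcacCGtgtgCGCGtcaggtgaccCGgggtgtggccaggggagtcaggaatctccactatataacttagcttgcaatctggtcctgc
9530053A07Rik: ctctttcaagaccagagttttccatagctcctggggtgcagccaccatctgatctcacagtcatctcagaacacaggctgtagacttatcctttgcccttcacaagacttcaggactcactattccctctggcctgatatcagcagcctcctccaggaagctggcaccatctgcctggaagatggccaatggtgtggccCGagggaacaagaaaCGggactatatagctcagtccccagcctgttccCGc
Muc20: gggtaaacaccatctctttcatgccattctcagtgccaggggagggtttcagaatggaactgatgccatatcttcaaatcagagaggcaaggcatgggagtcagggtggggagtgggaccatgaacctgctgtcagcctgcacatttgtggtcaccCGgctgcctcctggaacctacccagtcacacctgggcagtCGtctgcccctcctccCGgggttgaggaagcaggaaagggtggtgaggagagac
Muc1: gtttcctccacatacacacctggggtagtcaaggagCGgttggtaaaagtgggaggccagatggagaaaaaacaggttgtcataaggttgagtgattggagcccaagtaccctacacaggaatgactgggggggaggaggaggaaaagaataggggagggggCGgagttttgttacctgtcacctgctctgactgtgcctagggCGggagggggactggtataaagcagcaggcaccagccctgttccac

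Of the 8 windows of the members 7 held fewer CG pairs than the median window. Fcgbp held 5, Muc20 3 and Muc1 3, where the median over 32851 RefSeq windows of the same length was 6, with quartiles of 2 and 16. Muc4 and Emcn held 1 each, Muc3 held 8, and the 2 annotated starts of Muc13 held 0 and 4. A count as high as that of Fcgbp was met in 55.6% of all windows, and one as high as that of Muc20 and Muc1 in 71.0%. Muc15 had no entry in the table of windows, and methylation at these windows was not analysed here.

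**Figure D1:**
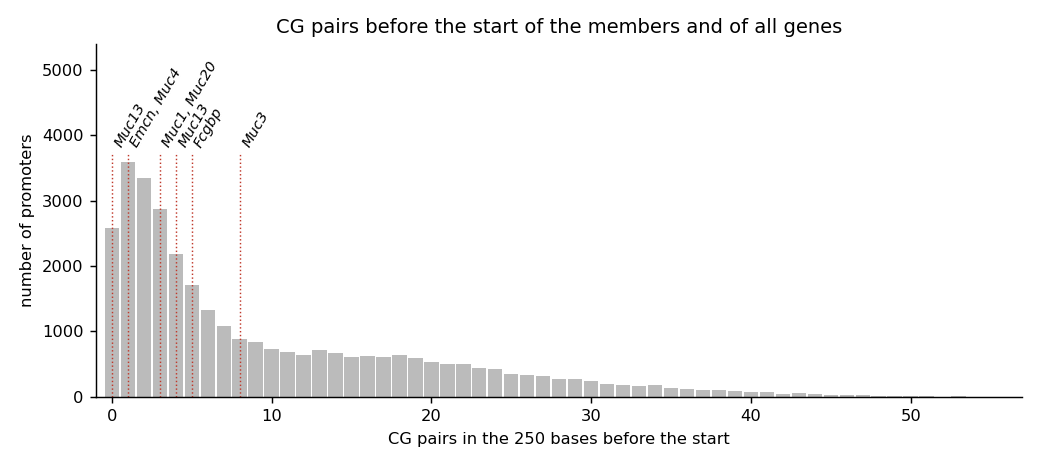
Grey bars give the number of RefSeq windows (vertical axis) by the number of CG pairs in the 250 bases before the start (horizontal axis), and dotted lines mark the windows of 7 members, 2 of them for Muc13. The members lie between 0 and 8 CG pairs, in a distribution with a median of 6 and quartiles of 2 and 16. Of all windows 43.0% held at least 8.

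Matches to 3 short motifs were counted in the same windows on both strands: GATAA, a core read by GATA factors, GGAA, the core of ETS factors such as Elf5, and GTTAAT, a core read by the hepatocyte nuclear factor Hnf1. No motif holds another within it. GGAA occurred 3 times before Fcgbp, 4 times before Muc20 and 4 times before Muc1, and at least once in 93.4% of all windows. GATAA occurred before none of these 3 and once before Muc3, against 22.6% of all windows. GTTAAT occurred once, before the second start of Muc13, against 6.4% of all windows.

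Fcgbp had the widest separation between the groups. It read 5.01, 2.03 and 2.28 TPM across the controls and 53.7 and 59.4 TPM across KspCre DKO replicates 1 and 2. Both KspCre DKO libraries were high and alike, and the lower of them stood 10.7 times above the highest control. Means were 3.11 ± 1.65 TPM in the controls (SD, n = 3) and 56.6 ± 4.04 TPM in KspCre DKO (SD, n = 2), 18.2 times as high. The log2 fold change (± SE) was 3.88 ± 0.37, with a limma adjusted p = 0.00999. The call was lost with KspCre DKO replicate 2 left out (adjusted p = 0.126), where the lone library of that group is taken to vary like the controls, with array weights (adjusted p = 0.0756) and with no filter on low values (adjusted p = 0.174). In rank, Fcgbp moved from above 13.7% to 29.2% of tested genes in the controls to above 85.0% and 90.7% in the KspCre DKO libraries. The gene (ENSMUSG00000047730.17) lies on chromosome 7, 28071236 to 28120864.

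The gene that follows Fcgbp on chromosome 7, 9530053A07Rik (28129466 to 28164811), carries FCGBP among its RefSeq synonyms and could share reads with it. It was looked up after the values of Fcgbp were seen. It was listed at 0.02, 0 and 0 TPM across the controls and 0.04 and 0 TPM across KspCre DKO, near 0 in all 5. The windows before both starts, printed above, matched at 175 of 250 bases when aligned over their length, against 110 to 136 bases for the other 27 pairs among the windows of 7 members and this gene. The copy held 3 CG pairs in its window against 5 for Fcgbp. How the authors' counting split reads between them is not given in the sources used here, so the level of Fcgbp carries that uncertainty.

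The 2 nearest tested protein-coding genes on each side of Fcgbp are given for comparison. Psmc4, a proteasome ATPase subunit gene, lay between 85.3 and 116 TPM in all 5 libraries, and Zfp780b read 4.40, 4.42 and 5.15 TPM against 4.29 and 3.94 TPM. Fbl, the nucleolar methyltransferase fibrillarin, read 45.1, 34.2 and 52.0 TPM against 43.6 and 28.0 TPM. Dyrk1b, a protein kinase gene, read 9.40, 8.33 and 11.7 TPM against 18.8 and 8.80 TPM. Groups overlapped for Psmc4, Fbl and Dyrk1b and not for Zfp780b, whose KspCre DKO levels were lower, and log2 fold changes of the 4 ran from −0.30 (Fbl) to 0.38 (Dyrk1b), with adjusted p from 0.756 to 0.904. Zfp850, a zinc finger gene between Psmc4 and Zfp780b that was added after its values were seen, did not reach the filter and was listed at 0.60, 0.53 and 0.41 TPM against 1.27 and 2.04 TPM, higher in both KspCre DKO libraries.

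Muc20 was the other member called by the fit across all genes. It read 20.3, 8.29 and 6.81 TPM across the controls and 195 and 90.0 TPM across KspCre DKO. The groups did not overlap, but KspCre DKO replicate 1 was 2.17 times as high as replicate 2, and control replicate 1 was 2.98 times as high as control replicate 3. Means were 11.8 ± 7.38 TPM in the controls (SD, n = 3) and 143 ± 74.5 TPM in KspCre DKO (SD, n = 2), 12.1 times as high, and the log2 fold change (± SE) was 3.53 ± 0.50, with a limma adjusted p = 0.0485. This call was lost in 4 of the 5 fits that left out 1 library, with adjusted p = 0.174 and 0.162 when control replicates 2 and 3 were dropped in turn, and 0.0545 and 0.168 when KspCre DKO replicates 1 and 2 were. It was also lost with a pseudocount of 0.1 (adjusted p = 0.0786), without an intensity trend (adjusted p = 0.0935), with array weights (adjusted p = 0.278) and with no filter on low values (adjusted p = 0.356). The gene (ENSMUSG00000035638.14) lies on chromosome 16, 32777419 to 32797435.

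Muc1 had the steadiest controls of the tested members, at 31.9, 34.3 and 34.5 TPM, and read 135 and 85.8 TPM across KspCre DKO. The lower KspCre DKO library stood 2.48 times above the highest control, and replicate 1 was 1.57 times replicate 2. Means were 33.6 ± 1.46 TPM in the controls (SD, n = 3) and 110.2 ± 34.6 TPM in KspCre DKO (SD, n = 2), 3.28 times as high. The log2 fold change (± SE) of 1.65 ± 0.29 did not pass, with a limma adjusted p = 0.0862. Muc1 passed under the 3 alternative scalings of the libraries, with adjusted p = 0.0289 by median of ratios, 0.0286 by quantiles and 0.0472 without mitochondrially encoded genes, and also without KspCre DKO replicate 1 (adjusted p = 0.0466). The gene (ENSMUSG00000042784.9) lies on chromosome 3, 89229056 to 89233381.

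Muc4 was near 0 in the controls, at 0.08, 0.07 and 0.25 TPM, and read 1.23 and 12.3 TPM across KspCre DKO. Nearly all of the signal came from KspCre DKO replicate 2, which also had the lowest number of genes above 0, and the gene reached the filter of a mean of 1 TPM only through that library. The log2 fold change (± SE) of 2.27 ± 0.71 did not pass, with a limma adjusted p = 0.318. Without KspCre DKO replicate 2 Muc4 was not tested, and without KspCre DKO replicate 1 it had an adjusted p = 0.0312, with 1 library left in that group. The gene (ENSMUSG00000079620.13) lies on chromosome 16, 32735886 to 32782391.

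Muc4 and Muc20 are neighbours that run toward each other, and RefSeq has them sharing 4973 bases, 32777419 to 32782391. Whether the counting used strand is not given in the sources used here, so reads from the shared bases cannot be told apart. Muc4 stood at 0.395%, 0.844% and 3.67% of the Muc20 level in the controls, and at 0.629% and 13.7% in KspCre DKO replicates 1 and 2. Of the KspCre DKO libraries, the one with more Muc20 had less Muc4.

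The other nearest tested genes of this pair were not above the controls in both KspCre DKO libraries. Tfrc, the transferrin receptor gene on the Muc4 side, read 27.4, 24.7 and 27.0 TPM across the controls and 9.71 and 0.47 TPM across KspCre DKO (limma adjusted p = 0.212, log2 fold change −2.78 ± 0.70 SE). Its KspCre DKO levels lay below all controls, with the lowest again in replicate 2. Fyttd1, an mRNA export adaptor gene, read 16.1, 23.8 and 18.8 TPM against 23.7 and 9.31 TPM, and Lrch3 read 9.37, 10.5 and 10.6 TPM against 11.0 and 5.69 TPM. Both overlapped between the groups (adjusted p = 0.794 and 0.781).

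Emcn, the endothelial member, read 138, 64.7 and 126 TPM across the controls and 129 and 83.1 TPM across KspCre DKO, inside the range of the controls in both. Means were 109.6 ± 39.4 TPM in the controls (SD, n = 3) and 106 ± 32.4 TPM in KspCre DKO (SD, n = 2). The log2 fold change (± SE) was −0.0068 ± 0.38, with a limma adjusted p = 0.998, and its sign turned under the alternative scalings. Its lowest level was in control replicate 2, where the summed level of 12 endothelial markers was also the lowest of the controls (706, 463 and 682 TPM in control replicates 1, 2 and 3, 563 and 435 TPM in KspCre DKO). As a share of that sum Emcn was 19.6%, 14.0% and 18.4% in the controls and 22.9% and 19.1% in KspCre DKO. The sum leans on Egfl7, the highest of these markers in each control, with 287, 156 and 236 TPM against 131 and 119 TPM. Egfl7 was singled out after its values were seen. Relative to Pecam1 alone Emcn was at 413%, 334% and 406% against 350% and 304%, and the groups overlapped for both shares. Of the 12 endothelial markers 2 had log2 fold changes above 0 and 10 below, where 38.3% of all tested genes lay above 0. None of these markers was called, and none was listed at 0. In whole organs, fewer cells of a type and less RNA per cell cannot be told apart. The gene (ENSMUSG00000054690.17) lies on chromosome 3, 137341062 to 137431069.

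The remaining members were listed at or near 0. Muc3 was listed at 0, 0.35 and 0.19 TPM across the controls and 0.27 and 0 TPM across KspCre DKO. Muc13 was listed at 0.07 TPM in KspCre DKO replicate 1 and Muc15 at 0.06 TPM in control replicate 2, and both at 0 in the other 4 libraries. These 3 genes did not reach the filter and were not tested.

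**Figure D2:**
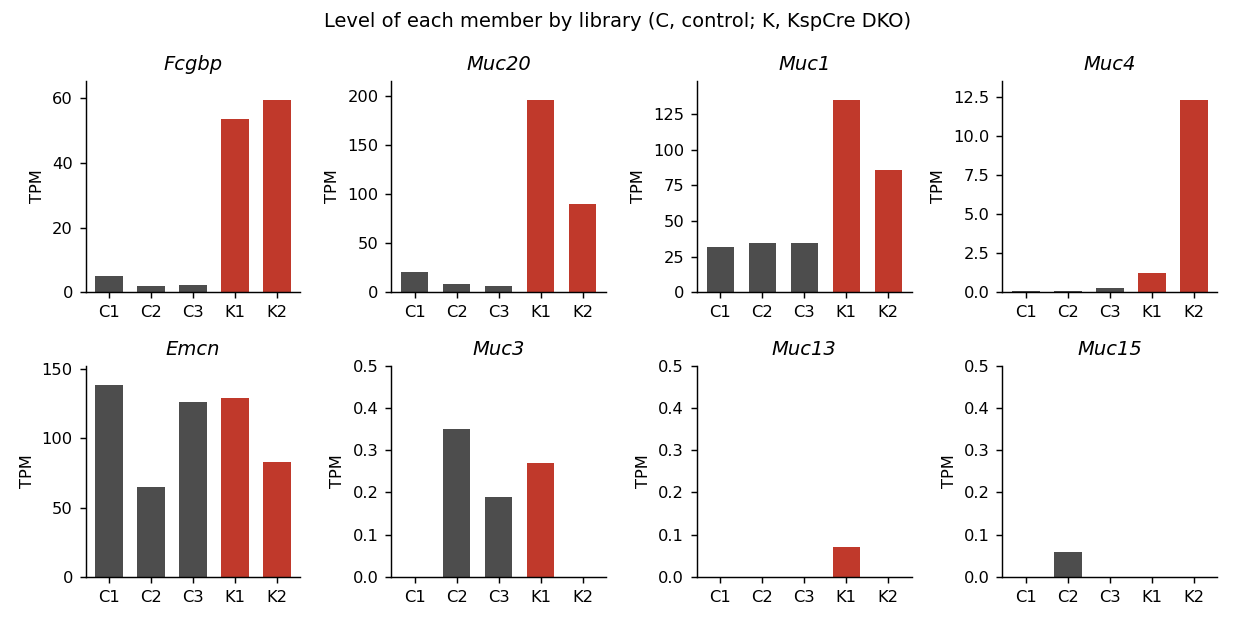
Each panel shows 1 member, with a bar for its TPM (vertical axis, starting at 0 and scaled per panel) in control replicates 1 to 3 (C1 to C3, dark) and KspCre DKO replicates 1 and 2 (K1, K2, red). Both red bars stand above all dark bars for Fcgbp, Muc20, Muc1 and Muc4 and not for Emcn, and Muc3, Muc13 and Muc15 stay at or below 0.35 TPM.

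Of the 8 members 5 were tested and 2, Fcgbp and Muc20, were called higher at a limma adjusted p below 0.05, against 0.1% of all tested genes called higher and 0.0645% called lower. Groups did not overlap for 4 of the 5, all higher in KspCre DKO, where 10.5% of all tested genes had both KspCre DKO libraries above the controls and 15.6% had both below. Muc4, among these 4, reached the filter only through KspCre DKO replicate 2, so it could be counted only as higher. Since the members were chosen with this contrast known, nothing is read from either share. The median log2 fold change of all tested genes was −0.14.

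The order of levels also differed between the groups. In each control library Emcn stood highest, followed by Muc1, Muc20 and Fcgbp, with Muc3, Muc4, Muc13 and Muc15 at or below 0.35 TPM. In both KspCre DKO libraries the order was Muc20, Muc1, Emcn, Fcgbp and Muc4. The ranges of Muc20 (90.0 to 195 TPM), Muc1 (85.8 to 135 TPM) and Emcn (83.1 to 129 TPM) overlapped there, because replicate 1 was the higher library for all 3, while their order was the same within each library, and Fcgbp lay below them in both. The 7 members other than Emcn summed to 57.2, 45.1 and 44.1 TPM in the controls and to 385 and 248 TPM in KspCre DKO. Muc1 made up 55.7%, 76.0% and 78.4% of that sum in the controls and 34.9% and 34.6% in KspCre DKO, while Muc20 made up 35.4%, 18.4% and 15.5% against 50.7% and 36.4%.

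**Figure D3:**
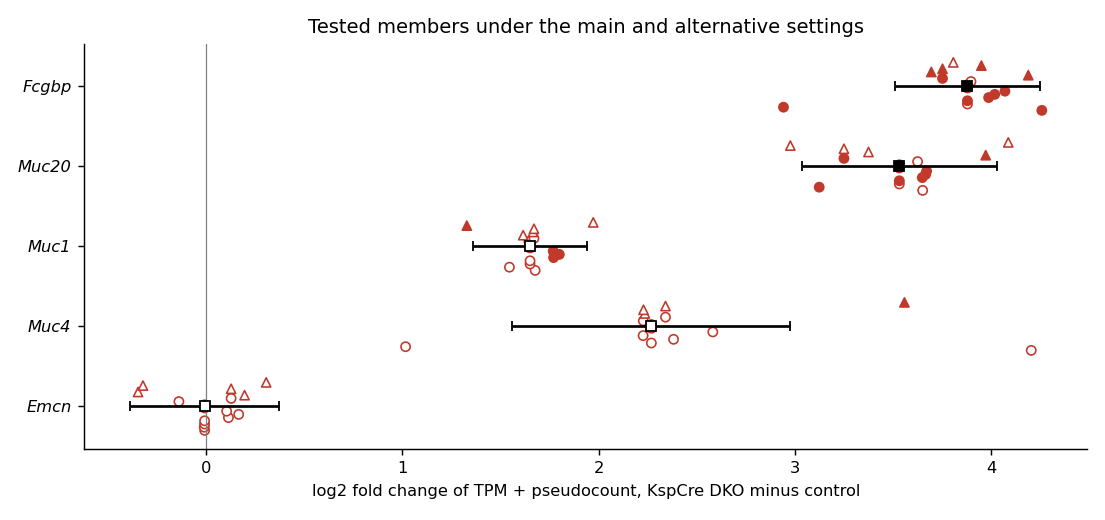
The horizontal axis gives the log2 fold change, KspCre DKO minus control, for the 5 tested members (vertical axis). Black squares with bars are the reported values ± SE, red circles other settings and red triangles fits without 1 library, filled where the adjusted p was below 0.05. Fcgbp was called in 13 of 16 alternatives, Muc20 in 8 of 16, Muc1 in 4 of 16 and Emcn in none, and Muc4 spread from 1.02 to 4.20.

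Marker sums of epithelia that could carry these mucins lay on both sides of the controls. The 11 markers of collecting duct principal cells summed to 1177, 1293 and 1239 TPM in the controls and to 2666 and 2617 TPM in KspCre DKO, with 6 of 11 log2 fold changes above 0, 5 of them at an unadjusted p below 0.05 (4.16% of all tested genes), 1 lower at that threshold (6.15%), and none called. Aqp2, the vasopressin-regulated water channel, held the greater part of that difference, with 347, 240 and 426 TPM against 1414 and 1218 TPM (limma adjusted p = 0.0512), while Scnn1b, a subunit of the epithelial sodium channel, read 50.0, 63.5 and 45.7 TPM against 45.5 and 43.1 TPM. Kcnj1, a potassium channel gene also of the thick ascending limb, was the lower one, with 75.4, 89.9 and 105 TPM against 50.3 and 36.2 TPM (limma adjusted p = 0.252). The 10 urothelial markers summed to 163, 91.9 and 122 TPM against 470 and 329 TPM, with 5 of 9 tested members above 0, 4 of them higher at an unadjusted p below 0.05 and 1 lower, and 1, the gasdermin gene Gsdmc2, called higher, against 0.1% of all tested genes. Psca, a surface antigen gene, held most of that difference, with 71.0, 28.6 and 36.0 TPM against 316 and 179 TPM (limma adjusted p = 0.0810), while the basal keratin gene Krt14 read 2.52, 3.79 and 3.53 TPM against 0.71 and 0.49 TPM (limma adjusted p = 0.26), and the log2 fold changes of Upk1a, Upk1b and Krt5 were also below 0. Kcnj1, Psca and Krt14 were singled out after their values were seen. The lists themselves were chosen with earlier results of these data known, so nothing is read from the call of Gsdmc2. No marker of either list was listed at 0 in any library. Of all tested genes 38.3% had a log2 fold change above 0. The thick ascending limb, a distal segment in which Muc1 is also known, had 8 markers whose sum was lower in KspCre DKO (1725, 1746 and 1690 TPM in the controls, 860 and 446 TPM in KspCre DKO), with all 8 log2 fold changes below 0, 5 of them at an unadjusted p below 0.05 (6.15% of all tested genes), and none called. The 5 distal convoluted tubule markers summed to 4249, 3481 and 3917 TPM against 1916 and 2482 TPM, and the 8 intercalated cell markers to 272, 342 and 321 TPM against 261 and 207 TPM, with none called in either list. S100g held most of the distal convoluted tubule sum, with 3970, 3306 and 3706 TPM against 1634 and 2247 TPM. Slc12a3 went the other way, with 155, 133 and 127 TPM against 231 and 181 TPM. Of the 5 log2 fold changes 2 were above 0 and 3 below. S100g and Slc12a3 were also singled out after their values were seen.

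Set against the principal cell sum within each library, the members were not equally displaced. Fcgbp came to 0.426%, 0.157% and 0.184% of that sum in the controls and to 2.02% and 2.27% in KspCre DKO, so its lowest KspCre DKO share was 4.73 times the highest control share. Muc20 came to 1.72%, 0.641% and 0.550% against 7.33% and 3.44%, and Muc1 to 2.71%, 2.65% and 2.79% against 5.05% and 3.28%. Relative to Aqp2 alone, Fcgbp was at 1.45%, 0.845% and 0.536% against 3.8% and 4.88%. Muc20 was at 5.85%, 3.45% and 1.6% against 13.8% and 7.39%, its lowest KspCre DKO share 1.26 times the highest control share. Muc1 was at 9.20%, 14.3% and 8.11% against 9.53% and 7.04% and overlapped between the groups. Relative to the urothelial sum, Fcgbp and Muc20 again did not overlap (3.07%, 2.21% and 1.86% against 11.4% and 18.1% for Fcgbp), and Muc1 did. How many of all tested genes would separate on these scales was not counted, so nothing further is read from the separation. Which cells carried the transcripts was not tested.

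**Figure D4:**
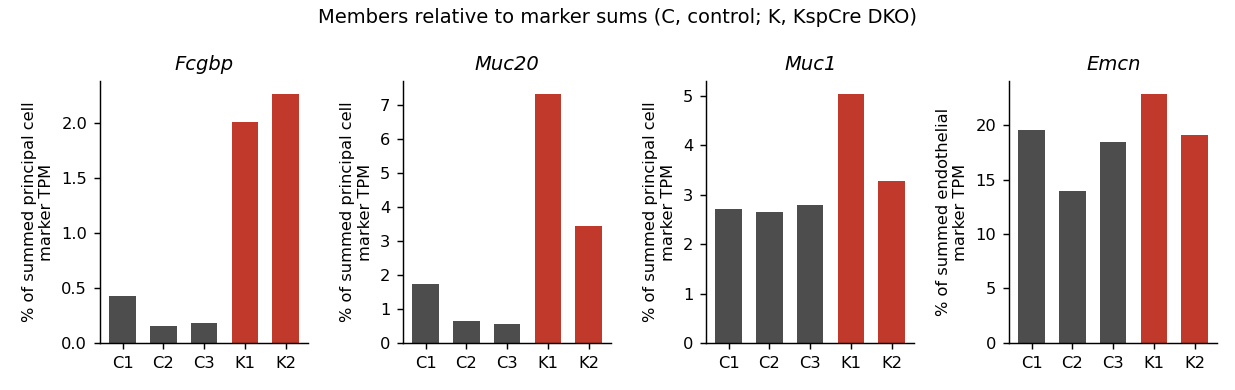
Bars give each member's TPM as a percent of the summed TPM of 11 principal cell markers (Fcgbp, Muc20, Muc1) or 12 endothelial markers (Emcn) in control replicates 1 to 3 (C1 to C3, dark) and KspCre DKO replicates 1 and 2 (K1, K2, red), with axes starting at 0. The shares of Fcgbp in KspCre DKO, 2.02% and 2.27%, stand well above those of the controls, and Muc1 at 5.05% and 3.28% stands closer to its controls at 2.65% to 2.79%.

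Goblet cells, the mucus-secreting cells of the intestine in which Fcgbp is best known, had markers at or near 0 in every library. The 5 goblet markers found summed to 0.06, 0.14 and 0.14 TPM in the controls and to 0.53 and 0.77 TPM in KspCre DKO, with Tff3, the trefoil peptide of goblet cells, and Retnlb listed at 0 in all 5 libraries. Muc2, the gel-forming mucin of the intestine, was listed at 0.06, 0.14 and 0 TPM against 0.27 and 0.77 TPM, levels too low to be tested. In the wider list of goblet cell and mucus granule genes, 6 of 18 found were tested. None was called (0.1% of all tested genes were called higher, 0.0645% lower). At an unadjusted p below 0.05, 1 was higher and 2 were lower (4.16% and 6.15% of all tested genes), and the median was −0.30. Tspan1, a tetraspanin gene, read 31.7, 17.2 and 20.3 TPM against 54.8 and 37.2 TPM (adjusted p = 0.377). Creb3l1, a membrane-bound transcription factor of secretory cells, read 9.02, 14.2 and 19.6 TPM against 6.46 and 6.04 TPM, and Sytl2, a granule trafficking gene, read 14.0, 15.1 and 14.2 TPM against 10.9 and 4.97 TPM. Tspan8 read 76.2, 53.0 and 51.0 TPM against 50.5 and 39.5 TPM.

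Mucin genes outside the 8 members were mostly at or near 0. Of 11 found, 5 (Muc5ac, Muc5b, Mucl1, Mucl2 and Mucl3) were listed at 0 in every library, and 3 were tested. None of these 3 was called (0.1% of all tested genes were called higher, 0.0645% lower). None was at an unadjusted p below 0.05 (4.16% of all tested genes were higher, 6.15% lower). Muc3a read 1.3, 2.44 and 2.24 TPM against 1.03 and 0 TPM, lower in both KspCre DKO libraries (adjusted p = 0.509). It reached the filter only through the controls, with means of 1.99 TPM there and 0.515 TPM in KspCre DKO. Ovgp1, an oviduct glycoprotein gene, read 1.88, 2.32 and 1.93 TPM against 2.87 and 2.75 TPM, and Muc19, a gel-forming mucin of salivary glands, read 1.31, 1.49 and 1.06 TPM against 0.68 and 1.32 TPM.

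The enzymes that build O-linked sugar chains on mucins lay on both sides of 0. Of 23 tested identifiers, 2 of them for St6galnac2, none was called (0.1% of all tested genes were called higher, 0.0645% lower). Of their log2 fold changes 12 were above 0, both of St6galnac2 among them, and 11 below. For all tested genes 38.3% were above 0, and the median of the list was 0.01. At an unadjusted p below 0.05, 2 were higher and 1 was lower (4.16% and 6.15% of all tested genes). Gcnt3, the enzyme that branches mucin chains into core 2 and core 4 forms, read 0.68, 0 and 0.08 TPM across the controls and 6.48 and 3.22 TPM in KspCre DKO (adjusted p = 0.162, log2 fold change 2.2 ± 0.48 SE). Both KspCre DKO libraries lay above all controls, and Gcnt3 reached the filter only through them, so it could be counted only as higher. St6galnac1, a sialyltransferase that caps the first mucin sugar, read 1.08, 1.86 and 0.41 TPM against 3.43 and 5.16 TPM (adjusted p = 0.34). Galnt2, which attaches that first sugar, was lower in KspCre DKO, with 16.6, 37.1 and 46.7 TPM against 11.3 and 8.51 TPM (adjusted p = 0.269, log2 fold change −1.55 ± 0.44 SE). The identifier ENSMUSG00000110170.1, which the gene name table pairs with St6galnac2 beside a second identifier, read 12.5, 27.2 and 15.8 TPM against 32.0 and 29.4 TPM (adjusted p = 0.515). The second identifier, ENSMUSG00000057286.6, held most of the signal, with 88.4, 131 and 72.3 TPM against 122 and 127 TPM and overlapping groups, and reads may be divided between them.

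Partners and shedding enzymes of membrane mucins had no called member among 16 tested (0.1% of all tested genes were called higher, 0.0645% lower). None was at an unadjusted p below 0.05 (4.16% of all tested genes were higher, 6.15% lower), and the median was −0.10. Met, the receptor bound by Muc20, read 15.9, 12.0 and 16.5 TPM against 24.2 and 17.7 TPM (adjusted p = 0.629). Egfr, a growth factor receptor that Muc1 associates with, read 5.65, 5.58 and 5.66 TPM against 13.0 and 7.0 TPM (adjusted p = 0.548). Mmp14 and Adam17, proteases that can shed mucin ectodomains, read 12.9, 9.29 and 13.4 TPM against 8.11 and 9.05 TPM for Mmp14 and 15.3, 22.1 and 16.5 TPM against 12.5 and 15.3 TPM for Adam17. Met and Egfr lay higher in both KspCre DKO libraries than in any control and Mmp14 lower, while Adam17 overlapped between the groups. Of the 16 tested, 3 lay higher without overlap and 1 lower, where 10.5% and 15.6% of all tested genes did.

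Other sialomucins and O-glycosylated surface proteins also lay on both sides of 0. Of 10 tested none was called (0.1% of all tested genes were called higher, 0.0645% lower). Of the log2 fold changes 5 were above 0 (38.3% of all tested genes were) and 5 below, and the median was −0.02. Podxl2, a sialomucin of endothelium, read 6.04, 6.89 and 8.66 TPM against 2.53 and 4.61 TPM (adjusted p = 0.445), the 1 gene of the list at an unadjusted p below 0.05, where 6.15% of all tested genes were lower. Selplg, the P-selectin ligand of leukocytes, read 2.69, 0.90 and 4.26 TPM against 1.53 and 0 TPM, and reached the filter only through the controls. Cd24a and Cd164, surface sialoglycoproteins, read 189, 109 and 160 TPM against 230 and 179 TPM for Cd24a and 57.2, 31.0 and 48.9 TPM against 84.7 and 48.5 TPM for Cd164.

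**Figure D5:**
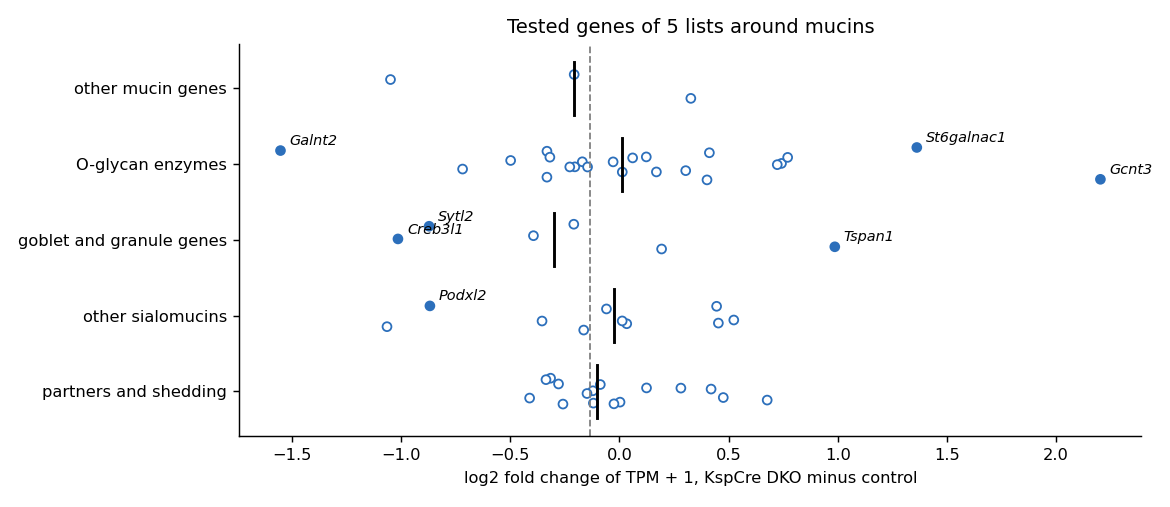
Each circle is a tested gene of 1 of 5 lists (vertical axis, with a small random offset), at its log2 fold change of TPM + 1, KspCre DKO minus control (horizontal axis). Filled circles with names have an unadjusted p below 0.05, black ticks are list medians and the dashed line is the median of all tested genes, −0.14. No gene was called, and the named genes lie on both sides, from Galnt2 at −1.55 to Gcnt3 at 2.2.

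Fcgbp and Muc20 were near each other in profile, but the measure includes the group difference that both share, so nothing further is read from it. Within KspCre DKO they differed, with replicate 1 at 0.904 times replicate 2 for Fcgbp and 2.17 times for Muc20. Likeness was measured as the root mean square difference of log2(TPM + 1), centred on each gene's mean, over the 5 libraries, among 11325 tested protein-coding genes. The nearest to Fcgbp were Muc20 (0.47), Rasal1 (0.50) and Akr1b3 (0.53), and the nearest to Muc20 were Rasal1 (0.33), Akr1b3 (0.43) and Fcgbp (0.47). Rasal1, a Ras GTPase activating protein gene, read 3.05, 0.27 and 1.12 TPM against 29.9 and 15.1 TPM. Akr1b3, aldose reductase, which makes the osmolyte sorbitol in the medulla, read 179, 55.0 and 107 TPM against 1221 and 711 TPM. Neither passed (adjusted p = 0.0705 and 0.0541), though Rasal1 passed in 4 and Akr1b3 in 7 of 16 alternatives, and both shared with Muc20 the higher level in KspCre DKO replicate 1 and in control replicate 1. The nearest to Emcn were Wee1 (0.04), Stard4 (0.06) and Eif3j1 (0.07), which, like Emcn, were lowest in control replicate 2 and lower in KspCre DKO replicate 2 than in replicate 1.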

How the data were processed

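Poly(A) RNA of whole kidneys went into Illumina TruSeq libraries, per the labels. The values the authors deposited are TPM per gene, 1 table per library without a header. STAR 2.2.1, RSEM 1.3.1, Trim Galore 0.5.0, Bismark 0.19.1 and mm10 are named, without roles, per the submitters' processing notes; their settings, the annotation and strandedness were not given in the sources used here. The 14 bisulfite samples are not analysed here. Poly(A) TPM hold no depth, and a listed 0 may be a failed estimate.

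Identifiers were paired with symbols for 52480 of 54146 genes (96.9%). All 8 members matched. Positions and the 250-base windows come from RefSeq GRCm38.p6, matched by symbol (7 members had a window). Overlapping windows on opposite strands were checked to be reverse complements.

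The test was limma 3.58.1 (R 4.3.3) on log2(TPM + 1), with intensity trend, two-sided, for the 13963 genes whose mean over the 5 libraries reached 1 TPM, Benjamini-Hochberg adjusted over all of them and called below 0.05. Fold changes on this scale understate the change of low genes. An exact permutation of 3 against 2 libraries allows 10 splits and no p below 0.1. The fit was tested on simulated data, with changes given to genes of higher control level. It called 2.8% of genes at a log2 fold change of 1, 63.2% at 2, 94.4% at 3 and 97.8% at 4. A gene not called can therefore still differ between the groups.

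Members and lists were chosen with earlier results of these data known. Named were all members, list members that were called or the 4 of smallest p, other mucin genes reaching 0.1 TPM, 2 neighbours per side and 3 nearest profiles. The replicate numbers are not taken as pairs, since nothing in the labels ties the libraries.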

Additional observations from a re-analysis of the deposited data

How the results depend on the processing

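The count of members called, 2 of 5 tested, became 1 with a pseudocount of 0.1 or without an intensity trend (Fcgbp), and 0 with array weights or with no filter on low values, which tested 22920 genes. It stayed within 1.5 times of 2 under the other settings, and it ran from 0 to 3 over the fits without 1 library. Without KspCre DKO replicate 2 none was called, and without control replicate 2 or control replicate 3 Fcgbp alone was. Among genes of the 5 pathway lists 0 were called, with a range of 0 to 1 when 1 library was left out, Sytl2 without KspCre DKO replicate 1. The cause of these shifts was not tested. Fcgbp ran from 2.94 to 4.26 in log2 fold change, Muc20 from 2.98 to 4.09 and Muc1 from 1.33 to 1.97 over 16 alternatives each, and no alternative turned their sign or that of Muc4.

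With the replicate number as a block, 2 members were called (Fcgbp and Muc20) and no pathway list gene, against 75 of all genes in place of 23. Control replicate 3 has no same-numbered KspCre DKO library, so it adds nothing to the fold changes of that fit. They equal those without control replicate 3 (3.75 for Fcgbp and 3.25 for Muc20), so these alternatives are not independent. Deviations from the group mean correlated at 0.09 and 0.03 between same-numbered libraries. The deviations of the 2 KspCre DKO libraries mirror each other by construction, so these correlations cannot decide whether libraries were paired. The numbers are not taken as pairs because nothing in the labels ties the libraries.

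All genes called ranged from 4 to 42 over the settings other than the block, against 23, and from 6 (without KspCre DKO replicate 2) to 560 (without KspCre DKO replicate 1, 90 higher and 470 lower) when 1 library was left out. The split was 14 higher and 9 lower as reported, 23 and 7 by median of ratios, 35 and 7 by quantiles, 26 and 11 without mitochondrially encoded genes. These scalings moved the median log2 fold change from −0.14 to −0.03, −0.02 and −0.04.

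Genes near no difference changed sign. Emcn came to 0.11 by median of ratios, 0.17 by quantiles, 0.11 without mitochondrially encoded genes and 0.13 with the block, and ran from −0.35 to 0.31 without 1 library. Wee1 came to 0.084, 0.070, 0.086 and 0.10 under the same settings, Eif3j1 to 0.080, 0.039, 0.077 and 0.12, and Stard4 to 0.011, 0.0057 and 0.031 by median of ratios, without mitochondrially encoded genes and with the block. Without 1 library, log2 fold changes ran for Muc19 from −0.44 to 0.025, Fbl from −0.61 to 0.014, Dyrk1b from −0.13 to 0.88, Fyttd1 from −0.98 to 0.28, Lrch3 from −0.74 to 0.11, Wee1 from −0.37 to 0.35, Stard4 from −0.43 to 0.24 and Eif3j1 from −0.39 to 0.34.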
